A study of Mus musculus with 6 samples.

Results

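The enzymes that make serine, move its carbon through folate and make asparagine were followed in differentiating muscle cells, as the 10 genes *Phgdh*, *Psat1*, *Psph*, *Shmt1*, *Shmt2*, *Mthfd1*, *Mthfd2*, *Mthfd1l*, *Aldh1l2* and *Asns*. They were taken by symbol from the 54525 genes listed for each library. The choice followed their place in the pathway and was made with earlier results of these data known. All 10 were found, and all 10 passed the filter on low counts that left 16290 genes to test. The study compared C2C12 myoblasts in growth medium (day 0, D0) with C2C12 myotubes after 5 days in differentiation medium (D5), with 3 samples in each group. The labels do not say whether the 3 came from separate cultures, so p-values measure only the spread between these samples, which may be technical. C2C12 is an established mouse myoblast line, wild type and without drug treatment in both groups, so each group is this same line and not muscle tissue. The growth medium held fetal bovine serum and the differentiation medium a smaller amount of horse serum, so the change of medium and differentiation cannot be told apart.

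Cells make serine from an intermediate of glycolysis in 3 consecutive steps, carried out by PHGDH, PSAT1 and PSPH. Serine hydroxymethyltransferases then move a carbon from serine onto tetrahydrofolate and release glycine, and the folate enzymes of the MTHFD family pass that carbon on to purines, thymidylate and formate. Mitochondria and cytosol hold parallel sets of these enzymes. Asparagine synthetase makes asparagine from aspartate and glutamine. Proliferating cells are known for a large demand for these products, and ATF4, a transcription factor of the amino acid response, is known to drive several of the genes.

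The D0 libraries held 36555048 to 40895840 counts on genes and the D5 libraries 25449759 to 25811300, so the least abundant of the 10 genes still had 80 to 86 counts in each D5 library. Markers of both states were read in all libraries. *Mki67*, a marker of cycling cells, fell from 25932 to 29754 counts at D0 to 466 to 555 at D5, and all 10 genes of a proliferation list fell, with a summed level of 2588 to 2614 CPM (counts per 1000000 counts, scaled with TMM factors) at D0 and 178 to 190 CPM at D5. The myoblast markers *Pax7*, *Myf5* and *Myod1* were lower at D5 and the 5 myotube markers, among them *Myog* and *Mymk*, were higher. Adipocyte markers had at most 1 count in any library. Of the 4 osteoblast markers, *Dmp1* was tested and was higher, at 12 to 22 counts in the D5 libraries, and the other 3 had at most 5 counts in any library. The part of the loss of cycling cells in the results below was not tested, and in bulk RNA fewer cells of a type and less RNA per cell cannot be told apart.

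Of the 10 genes, 9 were lower in myotubes. The falls ran from 1.60-fold for *Mthfd1* to 6.12-fold for *Aldh1l2*, and in each of these 9 all D5 values were under all D0 values, as they were for 41.1% of all genes tested. The exception was *Psat1*, the 1 gene called higher, whose groups overlapped and whose small positive difference depended on the scaling. The background is broad: past the threshold of 0.05 for the adjusted p of edgeR's quasi-likelihood test, 82.9% of all genes tested differed, 40.8% lower and 42.2% higher. Because the choice was made with earlier results of these data known, comparisons of the 10 genes with all genes describe them and test nothing. Of the 10 genes, 7 were lower by more than 2-fold, against 16.0% of all genes tested. The median log2 change (log2 of the level at D5 over that at D0) of the 10 genes was -1.12, while the median of all genes tested was 0.002. Of the 7, *Phgdh* and *Asns* lay close to the 2-fold limit, each at a log2 change of -1.04. Without D5 replicate 1 they were at -0.94 and -0.97. Without D5 replicate 3 *Asns* was at -0.997 and *Phgdh* at -1.04. With libraries scaled by total counts, 9 of the 10 were called lower and 0 higher, where 44.5% of all genes were lower and 38.6% higher. In counts that were not scaled all 10 were called lower, where 67.2% of all genes were lower and 20.6% higher. When the ERCC spike-ins, control RNAs added to each sample, set the scale, 8 were called lower and 0 higher, where 23.0% of all genes were lower and 11.1% higher. The share of these spike-ins varied within a group, from 0.720% to 2.09% of counts at D5.

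**Figure D1:**
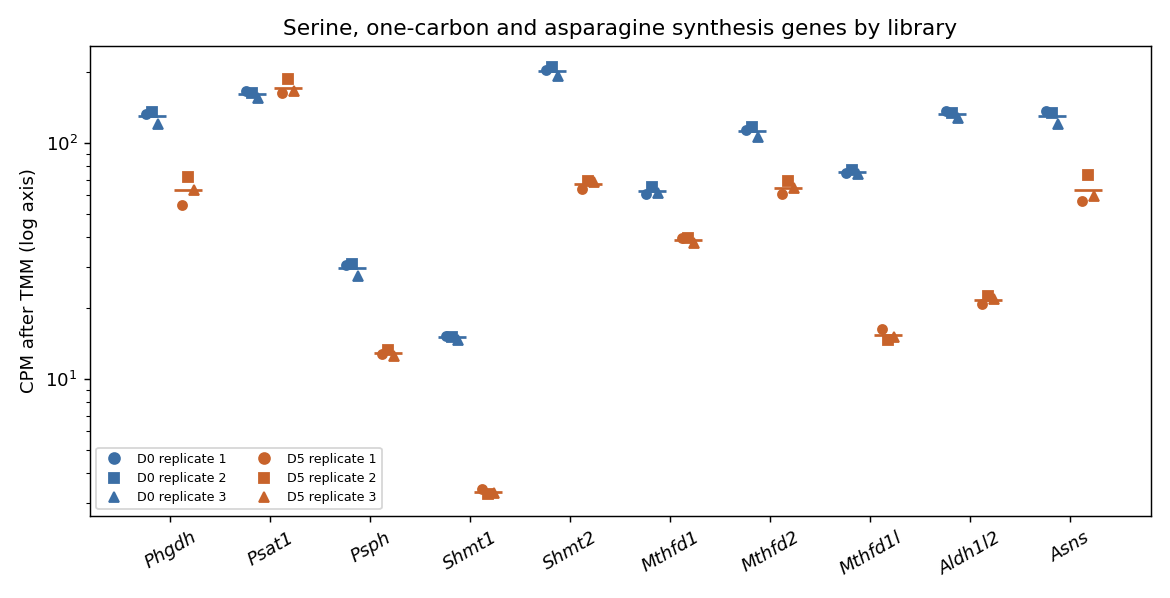
Level of the 10 genes in each library, in CPM after TMM scaling on a log axis; points are libraries (3 at D0 and 3 at D5) and horizontal lines are group means. The D5 points of 9 genes lie below all their D0 points, and those of *Psat1*, from 163 to 187 CPM, overlap the D0 points.

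The 3 steps of serine synthesis did not change alike. *Phgdh* encodes 3-phosphoglycerate dehydrogenase, which commits the glycolytic intermediate to serine (chromosome 3 of GRCm38 from 98313170 to 98339990, minus strand). It had 4976, 5722 and 4867 counts in D0 replicates 1, 2 and 3 and 1377, 1764 and 1578 counts in D5 replicates 1, 2 and 3. Its level fell from 130 ± 8.02 to 63.3 ± 8.38 CPM (SD, n = 3 each), a log2 change of -1.04 (standard error, SE, 0.056, edgeR adjusted p = 7.5e-17). The highest D5 library, replicate 2, was still far under the lowest D0 library, replicate 3. Processed pseudogenes hold copies of much of this transcript, and 47.8% of its 50-base stretches also occur in another gene. The 4 pseudogenes that share most of them had together at most 0.965% of the *Phgdh* counts in any library. How reads with several matches were handled is not given, so *Phgdh* reads from these stretches may have gone uncounted. The level of *Phgdh* relative to other genes may then be too low.

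*Psat1* encodes phosphoserine aminotransferase, the enzyme of the next step (chromosome 19 from 15904678 to 15947337, minus strand). It had 6206, 6867 and 6267 counts at D0 and 4086, 4596 and 4138 at D5, which after scaling is 162 ± 5.25 CPM and 172 ± 12.8 CPM (SD, n = 3 each). The groups overlapped, since D5 replicate 1, at 163 CPM, was under D0 replicate 1, at 166 CPM. The log2 change was 0.09 (SE 0.040, edgeR adjusted p = 0.043). This call of a higher level was lost without D5 replicate 2, at a log2 change of 0.031, without any one of the D0 libraries, with DESeq2, with upper-quartile factors, without the filter on low counts and with total counts, and the sign turned to -0.59 in counts that were not scaled and to -0.44 with the ERCC spike-ins.

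*Psph* encodes phosphoserine phosphatase, the last step (chromosome 5 from 129765558 to 129787449, minus strand). Its counts were 1142, 1297 and 1096 at D0 and 320, 327 and 311 at D5. The level fell from 29.5 ± 2.00 to 12.8 ± 0.393 CPM (SD, n = 3 each), to 43.5% of the D0 level, a log2 change of -1.20 (SE 0.062, edgeR adjusted p = 2.5e-17). Of its exonic length, 10.4% overlaps *Cct6a* on the opposite strand, and the strand setting of the counting is not stated. Some counted *Psph* reads may belong to *Cct6a*, or *Psph* reads in the overlap may have gone uncounted. Seen within each library, which needs no scaling, there were 1.25, 1.20 and 1.29 *Psat1* counts for each *Phgdh* count at D0 and 2.97, 2.61 and 2.62 at D5. All D5 libraries were above all D0 libraries in this ratio, and in that of *Psat1* to *Psph*, which was 5.48 ± 0.216 at D0 and 13.4 ± 0.646 at D5 (SD, n = 3 each).

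The promoters of *Phgdh* and *Psat1* are shown because these consecutive enzymes differed in this way. Each is the RefSeq window of GRCm38.p6 from 250 bases before to 50 after the transcript start, 5′ to 3′ on the minus strand, at chr3:98339920-98340219 and, for the first of the 2 *Psat1* starts listed, chr19:15925010-15925309, which lies inside the span that GENCODE gives the gene. Capitals mark CCAAT, a common promoter element.
*Phgdh*: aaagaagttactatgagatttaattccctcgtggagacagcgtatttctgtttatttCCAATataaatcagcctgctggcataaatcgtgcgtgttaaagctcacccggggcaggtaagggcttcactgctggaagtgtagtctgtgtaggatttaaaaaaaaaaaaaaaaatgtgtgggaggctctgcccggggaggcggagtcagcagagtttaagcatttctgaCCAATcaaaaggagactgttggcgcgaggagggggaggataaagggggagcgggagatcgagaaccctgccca
*Psat1*: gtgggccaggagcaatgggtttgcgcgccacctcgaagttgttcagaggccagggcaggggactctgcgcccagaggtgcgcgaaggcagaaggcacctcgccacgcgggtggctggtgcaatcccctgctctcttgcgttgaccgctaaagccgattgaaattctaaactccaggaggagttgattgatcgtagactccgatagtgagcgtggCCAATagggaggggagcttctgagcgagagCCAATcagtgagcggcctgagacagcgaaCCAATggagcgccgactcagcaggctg
CCAAT, searched on both strands, occurred 2 times in the *Phgdh* window and 3 times in this *Psat1* window. In the window of the other *Psat1* start it occurred 0 times, and which start these cells use was not tested. Of the 10 windows of 9 of the genes, 6 held it, against 37.4% of the 32851 windows of all genes, and no window was listed for *Aldh1l2*. CCAAT was chosen after these sequences were read, so the comparison describes the windows and tests nothing. CACGTG, the E-box letters bound by MYC among others, was in none of the 10 windows and in 7.15% of all windows. CAGCTG, an E-box form bound by myogenic factors, was in that of *Shmt1* and in 16.3% of all windows. These are matches of letters and not sites of binding.

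The genes that take carbon from serine fell in both compartments. *Shmt2* encodes the mitochondrial serine hydroxymethyltransferase (chromosome 10 from 127517123 to 127522444, minus strand) and had 7640, 8806 and 7728 counts at D0 and 1601, 1710 and 1707 at D5. The level went from 202 ± 8.97 to 67.3 ± 3.06 CPM (SD, n = 3 each), a 3.00-fold fall (log2 change -1.59, SE 0.040, edgeR adjusted p = 1.6e-25). The D5 libraries lay close together, far under all D0 libraries.

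*Shmt1* encodes the cytosolic form (chromosome 11 from 60788104 to 60811718, minus strand). It had 571, 637 and 591 counts at D0 and 86, 80 and 82 at D5. The level fell 4.52-fold, from 15.0 ± 0.304 to 3.32 ± 0.0917 CPM (SD, n = 3 each), a log2 change of -2.18 (SE 0.088, edgeR adjusted p = 5.2e-20). It was the least abundant of the 10 genes in both groups. Of its exonic length, 4.74% overlaps *Smcr8* on the opposite strand, a gene with 2526 to 2675 counts in the D5 libraries. The D5 counts of *Shmt1*, and with them its ratio to *Shmt2*, may hold reads of *Smcr8* or lack some reads of *Shmt1*.

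Per exonic base, *Shmt2* exceeded *Shmt1* 16.7-, 17.3- and 16.3-fold in the D0 libraries and 23.3-, 26.7- and 26.0-fold in the D5 libraries. The ratio was higher in 3 of 3 D5 libraries, 16.8 ± 0.470 against 25.3 ± 1.82 (SD, n = 3 each). An exact two-sided permutation test of its log2 value gave p = 0.1, the smallest that 3 libraries against 3 allow. In all, 4 such ratios were computed, each with this p, so none can pass a threshold of 0.05.

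The mitochondrial folate enzymes fell to different degrees. *Mthfd2* encodes the mitochondrial methylenetetrahydrofolate dehydrogenase and cyclohydrolase, known for its high level in embryos and tumours (chromosome 6 from 83305691 to 83325908, minus strand). Its counts were 4271, 4914 and 4267 at D0 and 1533, 1698 and 1600 at D5, a fall from 112 ± 5.66 to 64.8 ± 3.95 CPM (SD, n = 3 each). The log2 change was -0.79 (SE 0.043, edgeR adjusted p = 8.7e-17), and the groups did not overlap.

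*Mthfd1l* encodes the mitochondrial formyltetrahydrofolate synthetase, which releases formate (chromosome 10 from 3973118 to 4167081, plus strand). It had 2787, 3248 and 2965 counts at D0 and 410, 362 and 376 at D5. The level at D5 was 20.5% of that at D0, 75.1 ± 1.91 CPM against 15.4 ± 0.848 CPM (SD, n = 3 each), a log2 change of -2.29 (SE 0.050, edgeR adjusted p = 4.2e-27).

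*Aldh1l2* encodes the mitochondrial formyltetrahydrofolate dehydrogenase, which burns the carbon to carbon dioxide and yields NADPH (chromosome 10 from 83487450 to 83534140, minus strand). Among the 10 genes it fell most in each scaling. Its counts were 5116, 5647 and 5133 at D0 and 523, 556 and 541 at D5, and its level fell from 133 ± 4.74 to 21.7 ± 0.870 CPM (SD, n = 3 each), a log2 change of -2.61 (SE 0.045, edgeR adjusted p = 7.4e-30). Of its exonic length, 14.1% overlaps *D10Wsu102e* on the opposite strand, a gene with 2294 to 2357 counts in the D5 libraries. The D5 level of *Aldh1l2* may hold reads of that gene, or may lack *Aldh1l2* reads that went uncounted there.

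*Mthfd1* encodes the cytosolic enzyme that joins the synthetase, cyclohydrolase and dehydrogenase activities in 1 protein (chromosome 12 from 76255298 to 76319803, plus strand). It had 2284, 2733 and 2476 counts at D0 and 996, 975 and 942 at D5, and its level went from 62.5 ± 2.2 to 39.0 ± 1.01 CPM (SD, n = 3 each). This was the smallest of the 9 falls, a log2 change of -0.68 (SE 0.043, edgeR adjusted p = 4.5e-15), and the only one whose call did not hold under ERCC scaling (log2 change -1.24, edgeR adjusted p = 0.054).

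Ratios of related enzymes within a library showed the unequal falls without any scaling of libraries. *Mthfd1l* stood to *Mthfd1*, per exonic base, as 1.22, 1.19 and 1.20 in the D0 libraries and as 0.412, 0.372 and 0.400 in the D5 libraries. The order of these mitochondrial and cytosolic paralogs was thus turned, in 3 of 3 D5 libraries, with a 3.05-fold lower ratio (exact permutation p = 0.1, two-sided). *Mthfd2* stood to its mitochondrial paralog *Mthfd2l* as 13.3 ± 1.29 at D0 and 8.43 ± 0.637 at D5 (SD, n = 3 each; exact permutation p = 0.1, two-sided). *Mthfd2l* itself had a log2 change of -0.14 (edgeR adjusted p = 0.045). *Aldh1l2* exceeded its cytosolic paralog *Aldh1l1* 257-, 243- and 441-fold in the D0 libraries and 9.39 ± 2.23-fold in the D5 libraries (SD, n = 3, exact two-sided permutation p = 0.1). *Aldh1l1* itself had only 12, 14 and 7 counts at D0 and 40, 28 and 39 at D5, so this ratio is imprecise at D0.

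**Figure D2:**
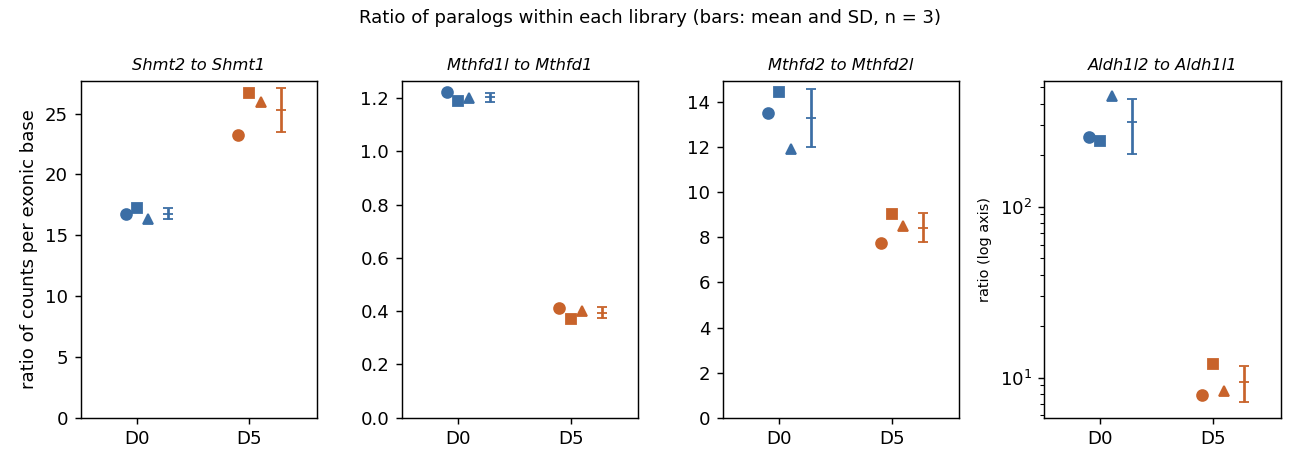
Ratio of counts per exonic base between paralogs in each library at D0 and D5, with mean and SD beside the points (n = 3); the axis of *Aldh1l2* to *Aldh1l1* is logarithmic. The ratio of *Shmt2* to *Shmt1* is higher in all D5 libraries, and the other 3 ratios are lower in all of them.

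*Asns* encodes asparagine synthetase, a known target of ATF4 (chromosome 6 from 7675169 to 7693254, minus strand). It had 5123, 5626 and 4856 counts at D0 and 1433, 1809 and 1480 at D5. The level fell from 130 ± 8.61 to 63.3 ± 8.82 CPM (SD, n = 3 each), a log2 change of -1.04 (SE 0.057, edgeR adjusted p = 1.2e-16). D5 replicate 2 was the highest of its group, at 73.4 CPM, and D0 replicate 3 the lowest of its group, at 121 CPM, as for *Phgdh*. In counts, *Asns* and *Phgdh* kept close to the same ratio, 1.00 ± 0.0237 at D0 and 1.00 ± 0.0555 at D5 (SD, n = 3 each).

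The promoter of *Asns* is shown because it is the only one of the 10 windows with the letters TGATGNAA, the core of the combined C/EBP and ATF element through which ATF4 acts. It is the RefSeq window of GRCm38.p6 at chr6:7693160-7693459, 5′ to 3′ on the minus strand, and capitals mark the match.
*Asns*: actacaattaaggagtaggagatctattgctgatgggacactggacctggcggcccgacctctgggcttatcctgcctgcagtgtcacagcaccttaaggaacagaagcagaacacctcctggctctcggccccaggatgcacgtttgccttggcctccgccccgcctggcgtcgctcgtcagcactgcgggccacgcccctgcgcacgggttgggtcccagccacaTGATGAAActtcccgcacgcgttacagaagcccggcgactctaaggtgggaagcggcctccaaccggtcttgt
The match begins 23 bases before the transcript start, on the strand of the gene, and overlaps no CCAAT. Searched on both strands, TGATGNAA occurred in 3.97% of all windows. Windows of 300 bases do not reach elements further away or inside the genes.

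Levels of different genes can be compared only per length, which was done in TPM (transcripts per 1000000 transcripts, from counts and exonic length). The length took in every annotated exon of a gene, whether or not these cells use it. The order of the genes and their shares therefore depend on the annotation. In myoblasts *Shmt2* was highest, at 224 ± 8.70 TPM, followed by *Phgdh* at 181 ± 9.75, *Asns* at 165 ± 8.82, *Psat1* at 131 ± 2.64 and *Mthfd2* at 111 ± 4.86 TPM (SD, n = 3 each). *Aldh1l2* at 61.2 ± 1.40 TPM and *Mthfd1l* at 58.5 ± 1.72 TPM overlapped, and no other neighbours did. *Mthfd1*, *Psph* and *Shmt1* came last, at 48.7, 23.6 and 13.4 TPM.

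In myotubes *Psat1* stood first, at 125 ± 7.43 TPM (SD, n = 3). *Phgdh* at 78.8 ± 8.95, *Asns* at 71.7 ± 8.83 and *Shmt2* at 67.0 ± 1.75 TPM were neighbours whose libraries overlapped. *Mthfd2* followed at 57.5 TPM and *Mthfd1* at 27.2 TPM, while *Mthfd1l*, *Psph* and *Aldh1l2* were at 10.8, 9.19 and 8.97 TPM, the latter pair overlapping, and *Shmt1* at 2.65 TPM. Summed over the 10 genes the level went from 1018 ± 38.3 TPM to 459 ± 27.3 TPM (SD, n = 3 each). The 4 mitochondrial folate genes went from 455 ± 16.0 to 144 ± 3.32 TPM and the 2 cytosolic ones from 62.0 ± 2.15 to 29.9 ± 1.12 TPM. The share of *Psat1* in the sum of the 10 was 12.6% to 13.1% in the D0 libraries and 26.9% to 27.6% in the D5 libraries.

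**Figure D3:**
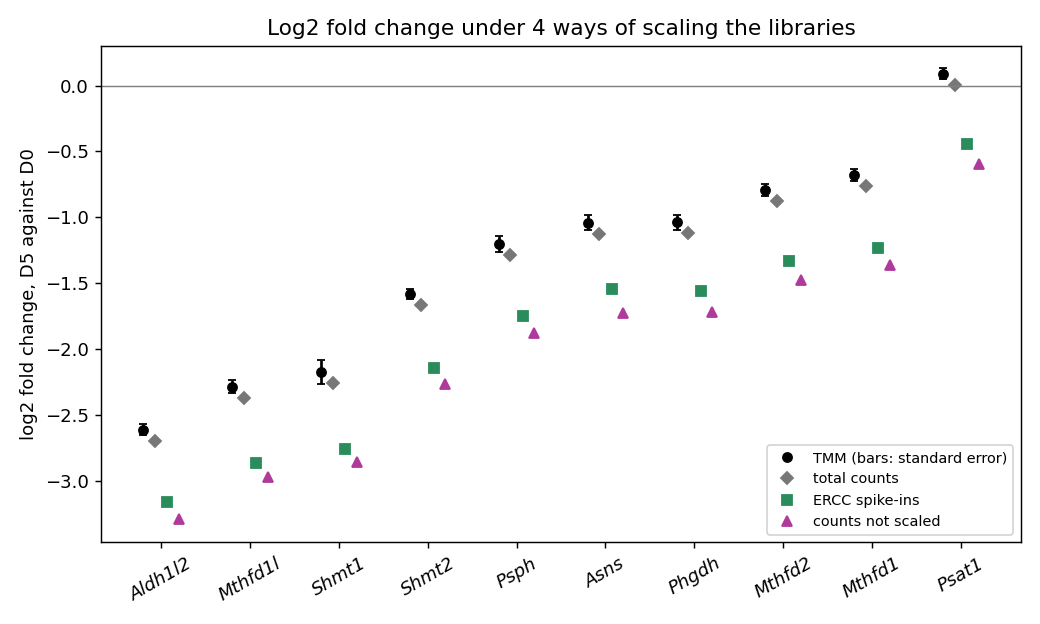
Log2 change of the 10 genes, D5 against D0, with TMM factors (bars are standard errors), total counts, ERCC spike-ins or no scaling. The order is the same in all 4 scalings except that *Phgdh* and *Asns* change places with ERCC spike-ins, the 9 genes other than *Psat1* stay under 0, and *Psat1* lies at 0.09, 0.0044, -0.44 and -0.59.

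The other genes around these pathways were read from lists chosen for their function. The counts of each list, here and below, are to be read beside the shares of all genes tested. Those were 40.8% lower and 42.2% higher with TMM factors, 67.2% and 20.6% unscaled, and 23.0% and 11.1% with ERCC scaling. Of 19 other folate enzymes and carriers that were tested, 8 fell and 7 rose, and the median log2 change was -0.14. Unscaled, 14 were lower and 4 higher, and with ERCC spike-ins 4 and 3. Thymidylate synthase *Tyms* fell from 55.8 ± 0.540 to 7.24 ± 0.554 CPM (SD, n = 3 each), a log2 change of -2.95. *Mtr*, methionine synthase, fell by 1.48 on the log2 scale. *Sardh*, the mitochondrial sarcosine dehydrogenase, rose from 1.54 ± 0.202 to 10.2 ± 0.194 CPM (SD, n = 3 each). *Slc25a32*, the mitochondrial folate carrier, rose by 0.90, or by 0.22 unscaled, with no call under ERCC scaling.

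Purine synthesis uses the folate carbon directly. Of the 6 genes of purine synthesis, 5 were lower and 1 higher (all 6 lower unscaled, 1 lower with ERCC scaling), with *Pfas* at a log2 change of -2.05, *Ppat* at -0.37 and *Paics* at -0.35, and *Adsl* at 0.31, which turned to -0.37 unscaled and -0.24 with ERCC scaling. Of 6 tested genes on the list for the methionine cycle and transsulfuration, 3 were lower and 3 higher, while all 6 were lower unscaled and 2 with ERCC scaling. This list counts the *Ahcy*-like genes *Ahcyl1* and *Ahcyl2*, for which no part in the cycle is claimed here. *Cth*, cystathionine gamma-lyase, was at -1.69, *Ahcy*, which hydrolyses S-adenosylhomocysteine, at -0.83 and *Ahcyl1* at -0.41. The higher ones, *Mat2b* at 0.34, *Mat2a* at 0.33 and *Ahcyl2* at 0.15, had negative values unscaled and with ERCC scaling.

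Of 10 tested genes for uptake and use of serine and glycine, 5 were lower and 4 higher (8 lower and 1 higher unscaled, 2 lower and 0 higher with ERCC scaling). The neutral amino acid transporters *Slc1a5* and *Slc1a4* fell by 0.84 and 0.71 on the log2 scale, and *Sptlc1*, which joins serine to palmitate for sphingolipids, by 0.30. *Srr*, serine racemase, rose from 15.8 ± 1.00 to 32.4 ± 1.29 CPM (SD, n = 3 each), with no call under ERCC scaling. *Ptdss2* at 0.26 and *Slc6a9* at 0.16 turned negative unscaled and with ERCC scaling. Of 16 tested genes of aspartate, asparagine, glutamine and proline metabolism, 9 were higher and 6 lower (4 higher and 12 lower unscaled, 3 higher and 2 lower with ERCC scaling). *Glul*, glutamine synthetase, rose 7.25-fold, from 19.1 ± 0.538 to 139 ± 1.46 CPM (SD, n = 3 each). *Asrgl1*, an asparaginase, had a log2 change of 2.26 and *Gpt*, an alanine aminotransferase, of 2.03. *Ass1*, which joins aspartate to citrulline, fell from 128 ± 5.55 to 19.3 ± 0.225 CPM (SD, n = 3 each), and *Aldh18a1*, of proline synthesis, fell by 1.34 on the log2 scale.

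ATF4 and 18 known targets of it gave 15 lower and 4 higher genes of 19, with a median log2 change of -0.96, and the same counts unscaled. With ERCC scaling 12 were lower and 2 higher. *Atf4* itself was lower in all D5 libraries, 223, 243 and 226 CPM against 273, 287 and 264 CPM at D0, a log2 change of -0.25 (edgeR adjusted p = 2.4e-07). The largest falls among genes averaging 100 counts or more in a group were those of *Stc2*, *Gdf15* and *Slc7a11*, at -3.74, -2.60 and -2.54. The rises were *Fgf21*, a secreted hormone, from 0.660 ± 0.264 to 59.9 ± 4.29 CPM, *Vldlr*, a lipoprotein receptor, from 0.510 ± 0.247 to 18.8 ± 1.99 CPM (SD, n = 3 each), *Cebpb*, a transcription factor, from 22.1 ± 2.51 to 62.4 ± 13.0 CPM (SD, n = 3 each, with no call under ERCC scaling), and *Nupr1*, from 19.4 ± 1.78 to 43.5 ± 2.63 CPM (SD, n = 3 each, likewise with no call under ERCC scaling). *Nupr1*, outside the rule for named genes, was added after its values were seen, to complete the 4. Of 20 cytosolic aminoacyl-tRNA synthetases, 14 were lower and 2 higher, with a median of -0.25, while all 20 were lower unscaled and 3 with ERCC scaling. *Vars*, *Yars* and *Aars* were at -1.21, -0.85 and -0.77, and *Farsa* and *Qars* at 0.52 and 0.29, both negative unscaled and with ERCC scaling.

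**Figure D4:**
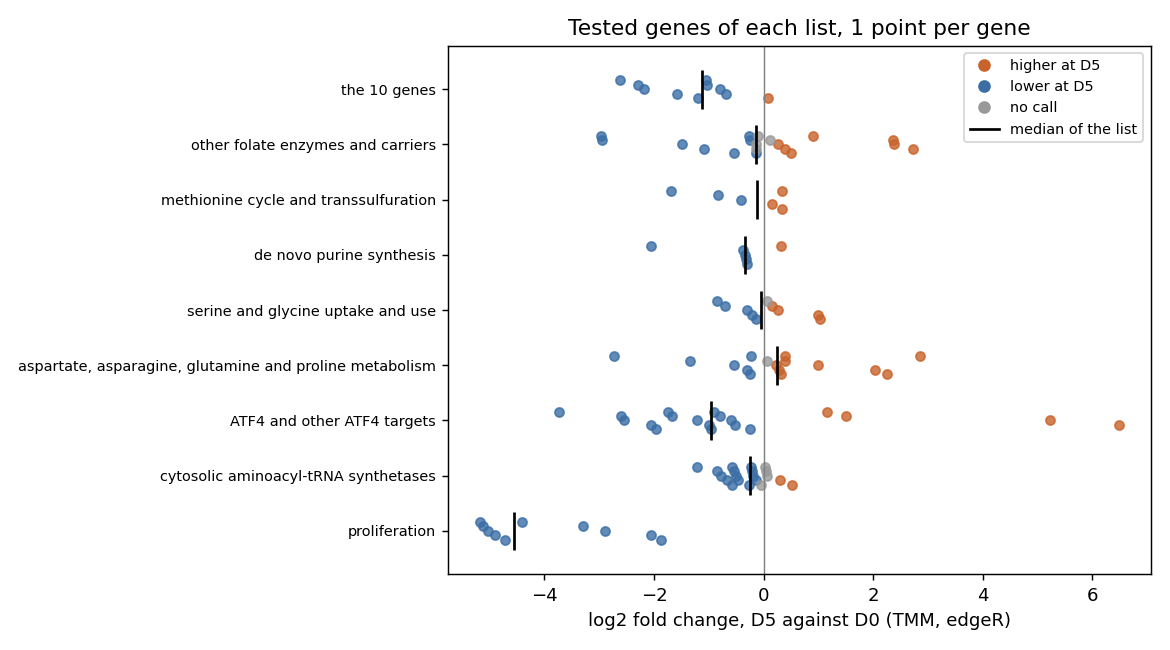
Log2 change, D5 against D0, of each tested gene in the lists, 1 point per gene, coloured by the call of edgeR's test, with the median of each list as a black line. The median of the 10 genes is -1.12, that of ATF4 and its other targets -0.96 and that of the proliferation genes -4.56, and the medians of the other 6 lists plotted, which leave out the cell type markers, lie between -0.34 and 0.26.

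Among 115 tested genes of these lists and of the cell type marker lists, those most like 4 of the members were found by the root mean square difference over the 6 libraries of log2 CPM relative to each gene's own D0 mean. Nearest to *Phgdh* were *Sesn2* at 0.085, *Slc7a5* at 0.094 and *Eif4ebp1* at 0.13. The same genes were nearest to *Asns*, with *Slc7a5* at 0.10, *Sesn2* at 0.12 and *Eif4ebp1* at 0.13. Nearest to *Mthfd2* were *Slc3a2* at 0.025, *Aars* at 0.054 and *Slc1a5* at 0.057, and nearest to *Psat1* were *Gcsh*, *Hars* and *Eprs*, at 0.047 to 0.052. All 6 libraries enter these values, which mostly reflect the size of the difference between the groups.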

How the data were processed

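RNA-seq libraries of C2C12 cells, 3 samples at D0 and 3 at D5, were used. The authors aligned the reads to GRCm38 (mm10), used featureCounts to assign them to genes, and deposited raw counts with no normalization, 1 library per sample. The paper names HISAT2 and the labels name Tophat2. The annotation release, the strand setting and the handling of reads with several matches are not given in the sources used here. The deposited sample labels call the cells of both days myoblasts, and the paper calls those at D5 myotubes. The 92 ERCC spike-in rows took 0.720% to 2.09% of the counts. Neither they nor the unnamed total row were tested or entered library sizes, except that the spike-in sums set the library sizes under ERCC scaling.

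From the deposited counts, edgeR 4.0.16 in R 4.3.3 gave TMM factors, CPM and quasi-likelihood tests after filterByExpr, with Benjamini-Hochberg adjustment over all 16290 genes. The SE of a log2 change was its size over the root of the F statistic. Positions and exonic lengths came from GENCODE vM21 of GRCm38, which held 99.9% of the gene identifiers, and promoters from RefSeq (9 of the 10 genes matched). Alternatives were DESeq2 1.42.0, upper-quartile factors, total counts, no scaling, ERCC scaling, 2 other filters, each library left out, and the replicate number as a block. Between replicates of a group, chi-square over its degrees of freedom was 2.28 to 3.71, above sampling noise.

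Every listed member is named. From each other list except the proliferation and cell type marker lists, which are given by counts and ranges, up to 3 rises and 3 falls, the largest past the threshold among genes averaging 100 counts or more in a group, are named. Of these, 3 genes are not reported here. The members and lists were chosen with earlier results of these data known, and CCAAT after the sequences were read.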

Additional observations from a re-analysis of the deposited data

How the results depend on the processing

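The falls of the 9 genes kept their direction under every alternative, and only the call of *Mthfd1* was lost, with ERCC scaling. A member called higher, *Psat1*, remained when each library had to hold 10 counts or more, under the replicate block and without D5 replicate 1 or D5 replicate 3. The number was 0 with DESeq2, upper-quartile factors, total counts, no scaling, ERCC scaling and no filter on low counts, and 0 to 1 when each library was left out. The log2 fold change of *Psat1* reversed to -0.59 without scaling and to -0.44 with ERCC scaling. The median of the 10 genes was -1.21 with total counts, -1.80 without scaling and -1.655 with ERCC scaling, and from -1.19 to -1.08 without each library. The median of all genes was then -0.082, -0.68 and -0.58 for those 3 scalings, beside which the shifts of the 10 genes stand, and 53.6%, 76.6% and 67.4% of all calls were lower, against 49.2% with TMM. Genes past the threshold numbered 5560 with ERCC scaling, against 13510. The cause was not tested, except that unscaled counts carry the greater depth of the D0 libraries.

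Whether the numbers of the replicates pair the libraries is not stated in the labels and was not settled. Same-numbered deviations correlated only weakly, at 0.033, 0.064 and 0.028, although each was the highest of its number. The replicate block gave 13558 genes past the threshold, 9 members lower and 1 higher, with a median of -1.12. Groups of 3 libraries were not searched for outlying values. Depth limits *Aldh1l1*, with 7 to 14 counts at D0 and 28 to 40 at D5.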

Other observations

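At D0, replicate 3 had the lowest CPM for 9 of the 10 genes and for 17 of the 19 genes of the ATF4 list, while it was the lowest library for 34.8% of all genes tested. At D5, replicate 2 was the highest for 7 of the 10 genes, against 35.4% of all genes tested. Its level was 1.26 times the mean of the other D5 libraries for *Asns*, 1.21 times for *Phgdh*, 1.13 times for *Psat1* and 1.10 times for *Mthfd2*, and 0.935 times for *Mthfd1l*. Over all genes tested this ratio had a median of 1.00, with the 5th percentile at 0.712 and the 95th at 1.35. For the ATF4 list, that library was the highest for 9 of 19 genes. D5 replicate 1 was the lowest for 15 of those 19 genes and for 6 of the 10 genes, against 35.3% of all genes tested. The pattern was noticed in these libraries and was not tested.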
